A study of Mus musculus with 2 samples.

Results

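Hyaluronan is a very long unbranched sugar polymer of the extracellular matrix, and the 9 genes described here make it, cut it, bind it or cross-link it. They are the synthases Has1, Has2 and Has3, the hyaluronidases Hyal1, Hyal2 and Cemip, the proteoglycan versican (Vcan), the matrix protein Tnfaip6 and the hyaluronan-binding protein Hmmr. The 9 genes were listed by symbol and matched by Ensembl identifier among 43346 Ensembl genes, of which 21474 were protein-coding genes with a symbol. Hyaluronan is extruded through the plasma membrane as it is made. It holds water in the loose mesenchyme of the embryonic face and forms aggregates with versican, a large chondroitin sulphate proteoglycan whose head domain binds the polymer. Turnover runs through cutting at the cell surface, uptake by receptors and breakdown in lysosomes.

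Total RNA was sequenced from the embryonic facial prominence of mouse strain B6NCrl at embryonic day 14.5, when the palate, jaws, skin and muscles of the face are forming. The series holds 1 group of 2 biological replicates with no genetic change or treatment, made from 10.0 ng of RNA with added spike-in RNAs and a SMART-seq protocol. Each sample is labelled as 1 cranioface, taken on a different day, although another label calls the tissue pooled male and female. Both samples carry the same donor identifier, although they are labelled as biological replicates. Each SD given here measures only the spread between these 2 samples, which may be partly technical. With 1 group no conditions can be compared, and 2 samples allow no test that could pass a threshold, so differences between the libraries are given as descriptions beside their frequency over all genes.

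Replicate 1 held 30919488 expected counts and replicate 2 held 37738872, of which spike-ins took 3.22% and 5.43%. Of 59 marker genes for cell types of the face and its neighbours, 56 reached a level of 1 TPM in both libraries, among them all 8 mesenchyme markers. TPM is the authors' expected count divided by effective length and scaled to a fixed library total, so that genes of different length can be set side by side. The libraries differed in cell type markers. Cartilage markers summed to 1016 TPM in replicate 1 against 581 TPM in replicate 2, and 4 of 8 (Col2a1, Col9a3, Matn1 and Matn3) were at least 1.5-fold lower in replicate 2 relative to the median gene, as were 1.4% of all genes tested. Summed suprabasal epidermal markers were 501 and 751 TPM, and 4 of 6 (Krt13, Krt6a, Lor and Cnfn) were at least 1.5-fold higher in replicate 2, as were 3.85% of all genes tested. Summed muscle markers were 3240 and 4329 TPM, with 2 of 5 (Acta1 and Myl1) higher by the same rule. Among 4 erythroid markers, which summed to 12062 and 13616 TPM, the embryonic globin Hbb-y was lower in replicate 2, at 1152 against 283 TPM, a log2 difference of -1.89 relative to the median gene. Among 6 epithelial markers, which summed to 693 and 696 TPM, the keratin Krt15 was higher in replicate 2, at 126 against 180 TPM. The other 6 marker lists had no gene past 1.5-fold. The part of these differences in any value below was not tested. In whole tissue, fewer cells of a type and less RNA per cell cannot be told apart.

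Versican RNA is spliced into 4 full forms that differ by the presence of 2 large exons. The alpha exon, exon 7 of 15, has 2880 bases (chr13:89702918-89705797, minus strand, build mm10), and the beta exon, exon 8, has 5217 bases (chr13:89688285-89693501). Both encode stretches to which chondroitin sulphate chains are attached. V0 holds both exons, V1 the beta exon, V2 the alpha exon and V3 neither. The exon junctions at which the forms differ are shown here because the shares given below divide versican RNA among these forms. Each line gives the last 20 bases of the upstream exon in lower case and the first 20 bases of the downstream exon in capitals, 5′ to 3′ on the transcribed strand, read from the GENCODE M21 transcripts.
Exon 6 to exon 7 (V0 and V2): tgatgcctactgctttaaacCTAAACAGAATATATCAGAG
Exon 7 to exon 8 (V0): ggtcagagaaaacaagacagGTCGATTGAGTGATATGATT
Exon 6 to exon 8 (V1): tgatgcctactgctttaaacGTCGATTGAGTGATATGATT
Exon 7 to exon 9 (V2): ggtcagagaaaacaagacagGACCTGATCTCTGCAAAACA
Exon 6 to exon 9 (V3): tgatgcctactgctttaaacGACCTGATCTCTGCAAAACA
Exon 8 to exon 9 (V0 and V1): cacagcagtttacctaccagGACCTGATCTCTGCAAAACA

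The beta exon also carries the best known site at which Adamts proteases cut versican. Its codons are shown because V0 and V1 are the full forms that encode the site. The 6 codons before the cut are in capitals and the next 4 in lower case, at chr13:89693209-89693238.
Adamts site in exon 8: GACCCGGAAGCTGCAGAAgctaggcgtggc
The capitals encode residues 436 to 441 of V1, which has 2394 residues, and residues 1396 to 1401 of V0, which has 3354. The same residues were not found in V2 (1615 residues) or V3 (655 residues).

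**Figure D1:**
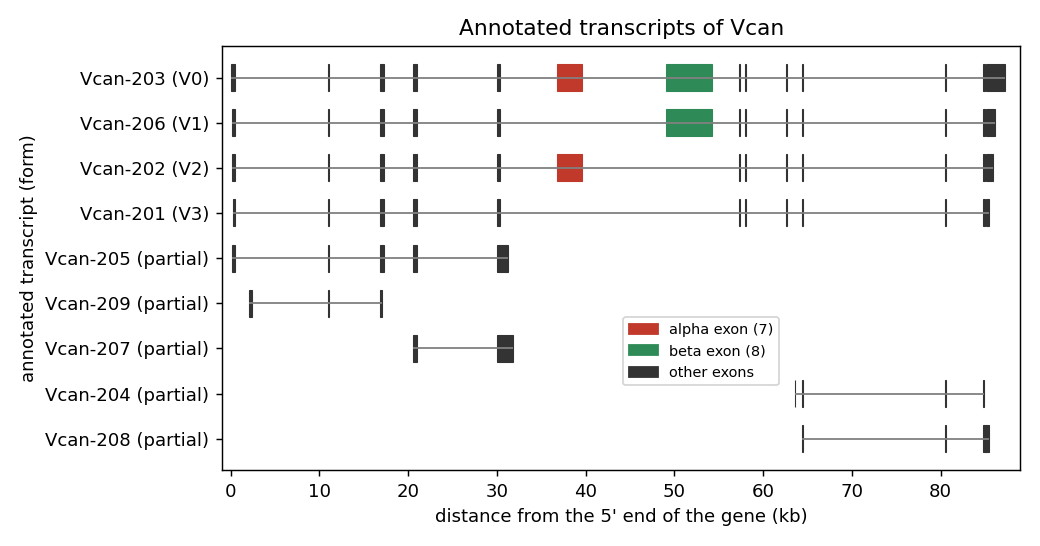
Annotated transcripts of Vcan, drawn to scale as the distance in kilobases from the 5′ end of the gene (horizontal axis), with 1 transcript per row and its form in brackets. Boxes are exons and lines are introns. V0 has both large exons, V1 and V2 have 1 each, V3 has neither, and the 5 partial transcripts have neither.

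The levels of the 9 genes spanned from under 1 TPM to about 100 TPM. In order of mean TPM they ran Vcan, Hyal2, Hmmr, Tnfaip6, Hyal1, Has2, Cemip, Has1 and Has3. In 5 of the 8 neighbouring pairs in this order, both values of the higher gene lay above both values of the lower gene. The values overlapped for Vcan and Hyal2, for Cemip and Has1, and for Has1 and Has3, so by this rule their order is not settled. Within each library Vcan lay above Hyal2, at 107 against 90.1 TPM and 85.8 against 80.0 TPM. Cemip and Has1, and also Has1 and Has3, changed order between the libraries. At 1 TPM or more in both libraries, 6 of 9 were called expressed (Vcan, Hyal2, Hmmr, Tnfaip6, Hyal1 and Has2), where the share among all protein-coding genes was 63.9%. This share is also the background for the counts of expressed genes in each list below.

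**Figure D2:**
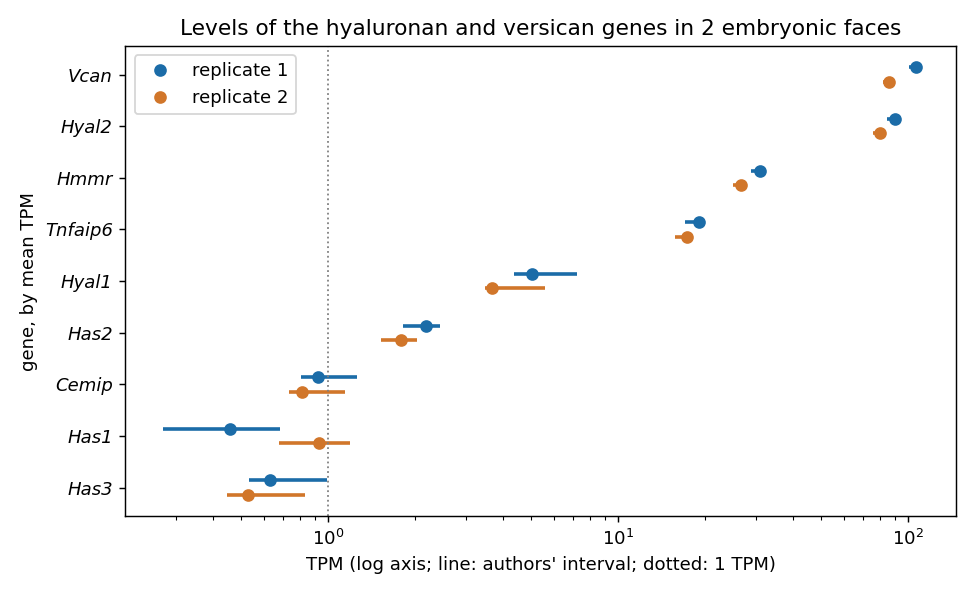
TPM of the 9 genes on a log axis (horizontal), ordered by mean TPM (vertical). Points are the 2 libraries, lines the authors' credibility interval for each library and the dotted line 1 TPM. Vcan and Hyal2 sit near 100 TPM in both libraries, while the points of Has1, Has3 and Cemip lie below 1 TPM. The intervals of Cemip (0.809 to 1.26 TPM in replicate 1 and 0.735 to 1.14 TPM in replicate 2) cross 1 TPM. That of Has1 in replicate 2 (0.675 to 1.19 TPM) does so too.

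Among the synthases, Has2 RNA had the highest level. Has2 (ENSMUSG00000022367.7, chr15:56665627-56694539, minus strand) is the synthase that mouse embryos need for heart and limb development, and it stood at 2.17 TPM in replicate 1 and 1.79 TPM in replicate 2, a mean of 1.98 ± 0.269 TPM (SD, n = 2). These rest on 177 and 189 expected counts. Has1 (ENSMUSG00000003665.6, chr17:17843323-17855205, minus strand) stood at 0.46 and 0.93 TPM, from 18 and 47 counts. Has3 (ENSMUSG00000031910.10, chr8:106870242-106884566, plus strand), which is known for making shorter chains, stood at 0.63 and 0.53 TPM, from 72 and 78 counts. Both Has2 values lay above all values of Has1 and Has3, whereas Has1 was the lowest synthase in replicate 1 and the second in replicate 2.

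The summed synthase level was nearly the same in the libraries, at 3.26 and 3.25 TPM. Has2 made up 66.6% of it in replicate 1 and 55.1% in replicate 2 (60.8% ± 8.12, SD, n = 2). Has1 made up 14.1% and 28.6%, and Has3 19.3% and 16.3%. Has1 took a 2.14 times larger share of all counts in replicate 2, with a 95% interval of 1.22 to 3.91 from an exact binomial test of the counts. That interval covers counting error only and compares these 2 libraries. The corresponding ratio was 0.875 (0.709 to 1.08) for Has2 and 0.888 (0.636 to 1.24) for Has3.

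Synthase genes overlap neighbours in part. Exons of Has2 share 182 bases with the antisense gene Has2os on the opposite strand, and exons of Has3 share 352 bases with Chtf8, also on the opposite strand. Has2os stood at 3.48 and 2.01 TPM from 43 and 41 counts, and Chtf8 at 83.1 and 66.5 TPM. How the authors handled strand is not given in the sources used here. Reads in the shared 4.30% of Has2 exon bases and 5.52% of Has3 exon bases therefore cannot be assigned with certainty by strand. Within the authors' model the posterior SD of the count, in reads, was 0 for Has2 and 0.95 for Has3 in both libraries.

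The enzymes that supply the sugar nucleotides for the polymer had far higher RNA levels than the synthases. All 12 genes of this list were expressed. The highest were Gpi1, the glycolytic glucose phosphate isomerase, at 239 and 211 TPM, Ugdh, which makes UDP-glucuronic acid, at 107.5 and 92.0 TPM, and Ugp2, which makes UDP-glucose, at 96.0 and 97.0 TPM. The lowest was the hexokinase Hk2 at 14.4 and 12.8 TPM. None of the 12 was past 1.5-fold between the libraries, where 3.85% of all genes tested were higher and 1.4% lower in replicate 2.

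Hyaluronidase RNA was dominated by Hyal2. Hyal2 (ENSMUSG00000010047.8, chr9:107567945-107572779, plus strand), a membrane-anchored enzyme that cuts long chains at the cell surface, stood at 90.1 and 80.0 TPM (85.0 ± 7.09, SD, n = 2; 3146 and 3576 counts). Hyal1 (ENSMUSG00000010051.11, chr9:107576927-107581710, plus strand), the lysosomal enzyme that cuts the fragments further, stood at 5.03 and 3.67 TPM (4.35 ± 0.962; 252 and 251 counts). The ratio of Hyal2 to Hyal1 was 17.9 in replicate 1 and 21.8 in replicate 2. Cemip (ENSMUSG00000052353.9, chr7:83932857-84086502, minus strand), a hyaluronan-degrading protein unrelated to the Hyal family, stood at 0.92 and 0.81 TPM from 113 and 138 counts.

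Its relative Cemip2 had a much higher level, at 27.0 and 24.2 TPM, 29.3 and 29.9 times that of Cemip. Of the 9 hyaluronidase genes examined, 3 were expressed (Hyal1, Hyal2 and Cemip2). Hyal3 stood at 1.07 and 0.94 TPM. Hyal4 had 0 and 1 counts. Hyal5, Hyal6 and Spam1, known from sperm and testis, had 0 counts in both libraries. A count of 0 allows up to 3 counts, which is 0.0795 and 0.0615 TPM for Spam1.

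The assignment of reads to Hyal1 was less certain than for the other 8 genes, by the posterior SD of the count. Its exons share 1920 bases with Naa80 on the same strand, 50.8% of its exon bases, and 159 bases with Hyal3. Naa80 stood at 14.9 and 12.4 TPM. The authors' posterior SD of the Hyal1 count was 23.9 and 22.4, where that of the other 8 genes was 0 or under 1. Relative to level, the authors' TPM interval was wider for Has3 than for Hyal1 in both libraries (0.532 to 0.993 and 0.447 to 0.832 TPM). For Has1, at 0.270 to 0.683 and 0.675 to 1.19 TPM, it was wider in replicate 1 only. For Hyal1 it ran from 4.36 to 7.19 TPM in replicate 1 and from 3.47 to 5.61 TPM in replicate 2. These intervals overlap, while both stay far below Hyal2 and above Has2.

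Hyal1, Hyal2 and Cemip together came to 96.0 and 84.5 TPM. Set against the synthase sum this gave 29.5 and 26.0 (27.7 ± 2.44, SD, n = 2). These are RNA levels and not enzyme activities, and nearly all of the numerator is Hyal2. With Hyal3 and Cemip2 included the mean ratio was 35.9, and with expected counts not divided by length it was 12.9. Downstream of the hyaluronidases, all 5 lysosomal enzyme genes of the list were expressed, with Hexa, which encodes a hexosaminidase subunit, at 93.2 and 82.1 TPM and Gusb, which encodes beta-glucuronidase, at 46.5 and 45.4 TPM.

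Vcan had the highest mean level of the 9 genes. Vcan (ENSMUSG00000021614.12, chr13:89655312-89742509, minus strand) stood at 107 TPM in replicate 1 and 85.8 TPM in replicate 2 (96.3 ± 14.7, SD, n = 2), from 16263 and 17589 counts. It ranked 1377 and 1561 among the 21474 protein-coding genes. The authors' intervals were 101 to 108 TPM and 81.8 to 87.3 TPM and did not overlap. Relative to the median gene, replicate 2 was lower by a log2 difference of -0.17, within the 1.5-fold range. The ratio of Vcan to Has2 was 49.2 in replicate 1 and 48.0 in replicate 2.

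Vcan made up 80.2% and 83.5% of the summed TPM of the 4 lecticans, the family of hyaluronan-binding proteoglycans. Acan, the cartilage lectican, stood at 24.9 and 15.3 TPM. Ncan and Bcan, both known from brain, stood at 0.98 and 0.86 TPM and at 0.48 and 0.81 TPM. The link protein Hapln1, which fastens lecticans to hyaluronan, stood at 35.6 and 21.8 TPM, and it was the 1 expressed gene of 4 link proteins. Hapln3 stood at 1.14 and 0.94 TPM, Hapln4 at 0.28 and 0.41 TPM and Hapln2 at 0.24 and 0.04 TPM.

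Acan and Hapln1 were both lower in replicate 2, by a log2 difference of -0.53 and -0.54 relative to the median gene, neither past 1.5-fold. All 8 cartilage markers, Acan among them, were also lower than the median gene in replicate 2, with a median of -0.58. The ratio of Vcan to Acan was 4.28 and 5.60, and that of Vcan to Hapln1 2.99 and 3.93. The part of the cartilage difference in these ratios was not tested.

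V0 was the leading versican form in both libraries. It made up 43.1% of Vcan TPM in replicate 1 and 45.5% in replicate 2 (44.3% ± 1.69, SD, n = 2). V3, which carries no chondroitin sulphate exon, made up 29.4% and 24.5% (26.9% ± 3.40), and V1 made up 20.4% and 22.0% (21.2% ± 1.10). V2, the form known from adult brain, had 0 counts in both libraries, and the authors' upper bound for it was 0.373 and 0.335 TPM. The other 5 transcripts, all partial, made up 7.11% and 7.97%. By TPM the order V0, V3, V1 was the same in both libraries. The authors' intervals for V3 and V1 were apart in replicate 1 but overlapped in replicate 2, so their order is not settled there. In expected counts V1 lay above V3 in both libraries, at 3540 against 1372 and 3960 against 1193.

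The beta exon and its Adamts site were thus in 63.5% and 67.5% of versican TPM (65.5% ± 2.79), and the alpha exon in 43.1% and 45.5%. The 5 partial transcripts end before or begin after both exons, and these shares count them as lacking both. The ratio of V0 to V1 was 2.11 and 2.07. The ratio of V3 to V1 was 1.44 and 1.12. V3 was the full form whose share differed most between the libraries. Its level was 31.3 TPM (authors' interval 27.1 to 33.3) in replicate 1 and 21.1 TPM (17.7 to 22.8) in replicate 2. The intervals did not overlap. V0 stood at 46.0 and 39.0 TPM, and its intervals, 43.3 to 46.0 and 37.0 to 39.2 TPM, did not overlap either. V1 stood at 21.8 and 18.9 TPM, with intervals that overlapped between the libraries. These levels are TPM as deposited, in which the median gene tested was itself lower in replicate 2, at a log2 difference of -0.14. As a share of Vcan TPM, V0 was higher in replicate 2, at 45.5% against 43.1%. Each interval was computed within 1 library, so it holds no spread between samples.

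**Figure D3:**
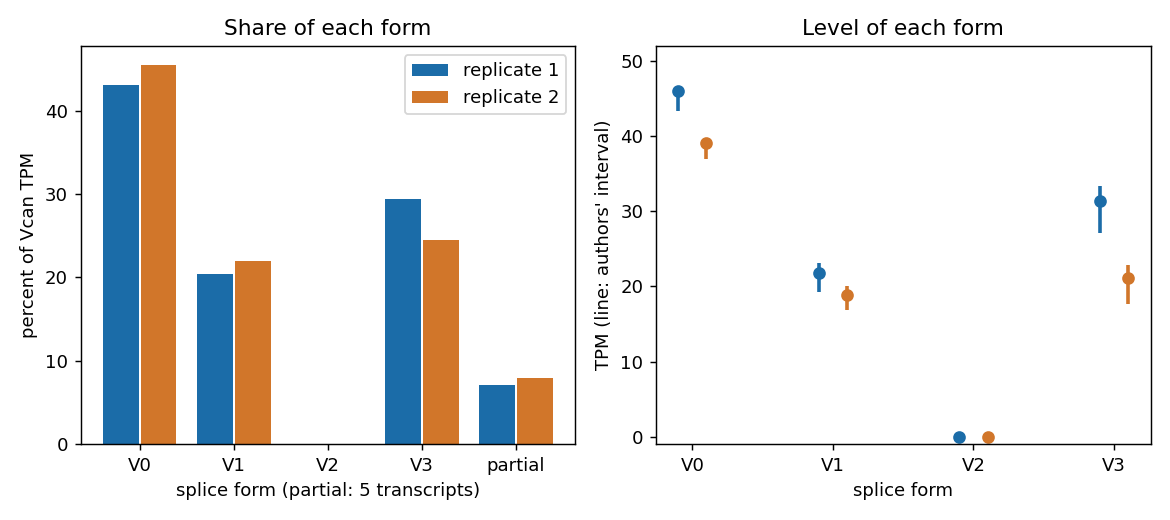
Versican splice forms in the 2 libraries. Left, bars give each form's percent of Vcan TPM. Right, points give its TPM with the authors' credibility interval as a line. V0 leads in both libraries, V3 comes next at 29.4% and 24.5%, and V2 is listed at 0.

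These shares depend on how reads were divided among transcripts. V3 has no bases of its own among the 4 full forms, nor have V1 and V2, so that reads show these forms only where they cross a junction or are missing from the large exons. No junction counts were used here. The V0 model also holds 1203 bases found in no other full form, 1028 of them in the 3′ untranslated region and 175 in the 5′ untranslated region. Whether V1 transcripts share these ends was not tested. In expected counts, which are not divided by length, the longest form weighs more, and V0 made up 69.2% and V3 7.61% on average.

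Of 9 listed genes for proteases that can cut versican 8 were expressed, where the share among all protein-coding genes was 63.9%. None of the 8 was past 1.5-fold between the libraries. Over all genes tested 3.85% were higher and 1.4% lower in replicate 2, so this is near the background. Mmp2 and Mmp14, both matrix metalloproteinases, stood at 241 and 207 TPM and at 201 and 176 TPM. Adamts1 led the Adamts genes at 36.1 and 29.8 TPM, followed by Adamts15 at 16.2 and 13.9 TPM and Adamts4 at 10.6 and 8.91 TPM. Adamts20 and Adamts9 are known for versican cleavage during palate closure. Adamts5, Adamts20 and Adamts9 stood at 9.10 and 8.88 TPM, 7.71 and 6.26 TPM, and 5.46 and 6.14 TPM. The lowest of the list, Mmp7, had 3 and 0 counts.

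Among 7 matrix partners of versican 6 were expressed. None of the 6 was past 1.5-fold, where 3.85% of all genes tested were higher and 1.4% lower in replicate 2. Fn1 (fibronectin) stood at 242 and 210 TPM, Fbln1 (fibulin 1) at 215 and 179 TPM and Fbln2 at 187 and 154 TPM. The lowest, the neural tenascin Tnr, stood at 0.28 and 0.08 TPM. All 18 genes for building and sulphating the chondroitin sulphate chain were expressed. They were led by Chpf, a chain polymerising factor, at 53.7 and 49.8 TPM, Dse, the dermatan sulphate epimerase, at 40.7 and 36.7 TPM, and B3gat3, which completes the linker, at 32.5 and 30.9 TPM. The lowest was the sulphotransferase Chst3 at 1.07 and 1.00 TPM.

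Of the 18 chain genes 1 was past 1.5-fold, the chondroitin 4-sulphotransferase Chst13. It stood at 2.48 TPM (76 counts) in replicate 1 and 4.88 TPM (193 counts) in replicate 2, a log2 difference of 0.89 relative to the median gene. Over all genes 3.85% were higher in replicate 2 by this rule, so 1 of 18 is near the background. The median of the list was -0.03, where the median of all genes tested was 0 by construction.

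Tnfaip6 (ENSMUSG00000053475.5, chr2:52038009-52056686, plus strand), also called TSG-6, transfers heavy chains of inter-alpha-inhibitor onto hyaluronan and so cross-links it. It stood at 19.0 and 17.2 TPM (18.1 ± 1.22, SD, n = 2), from 603 and 708 counts, above Has2 and Hyal1 in both libraries. Of 10 genes in the cross-linking list 5 were expressed. Ptx3, a pentraxin that joins these complexes, stood at 23.4 and 19.9 TPM, Habp4, an intracellular hyaluronan-binding protein, at 21.9 and 21.1 TPM and the heavy-chain gene Itih5 at 17.4 and 17.1 TPM. Itih2 stood at 3.11 and 2.72 TPM, while Itih1 had 0 counts in both libraries, with an authors' upper bound of 0.614 and 0.483 TPM. Itih3 stood at 0.25 and 0.30 TPM, and Ambp, which encodes the bikunin that carries the heavy chains in serum, had 2 and 4 counts.

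Hmmr (ENSMUSG00000020330.12, chr11:40701395-40733422, minus strand) encodes a hyaluronan-binding protein that also works at the mitotic spindle. It stood at 30.9 and 26.6 TPM (28.7 ± 3.04, SD, n = 2), from 2088 and 2313 counts. Of the 7 genes in the receptor list 6 were expressed. The highest, Ptprs, is a receptor for chondroitin and heparan sulphate proteoglycans and stood at 82.1 and 68.7 TPM, followed by the scavenger receptor Stab1 at 56.8 and 59.0 TPM and the main cell-surface receptor Cd44 at 40.2 and 43.4 TPM. Lyve1, of lymphatic vessels, stood at 13.9 and 14.7 TPM and Layn at 3.43 and 2.95 TPM. The lowest, Stab2, stood at 0.26 and 0.24 TPM. The ratio of Hmmr to Cd44 was 0.769 in replicate 1 and 0.613 in replicate 2.

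The 17 mitotic genes set beside Hmmr were all expressed, as were 63.9% of protein-coding genes, and none was past 1.5-fold. Over all genes tested 3.85% were higher and 1.4% lower in replicate 2, so none of 17 is near the background. Cdk1 stood at 350 and 300 TPM, Ccnb1 at 177 and 128 TPM, Top2a at 162 and 137 TPM and the lowest, Bub1, at 15.3 and 12.7 TPM. Of the 17, 16 were below the median gene in replicate 2, with a median log2 difference of -0.19. Hmmr lay at -0.07. The ratio of Hmmr to Tpx2, its partner at the spindle, was 0.450 and 0.527.

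None of the 6 genes with a mean of 1 TPM or more was past 1.5-fold between the libraries. The difference was taken as log2(TPM + 1) of replicate 2 minus replicate 1, relative to the median of 15715 genes, which was itself -0.14. This scale understates the change of low genes. Over all genes 605 (3.85%) were at least 1.5-fold higher and 220 (1.4%) at least 1.5-fold lower in replicate 2. Without setting the median to 0, 411 were higher and 410 lower. The differences were -0.23 for Hyal1, -0.17 for Vcan, -0.07 for Hmmr, -0.05 for Has2, -0.03 for Hyal2 and 0.01 for Tnfaip6, with a median of -0.06. In TPM as deposited, 8 of 9 genes were lower in replicate 2, the exception being Has1. The median gene tested was itself lower there, at -0.14, so this count is not read as particular to these genes.

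**Figure D4:**
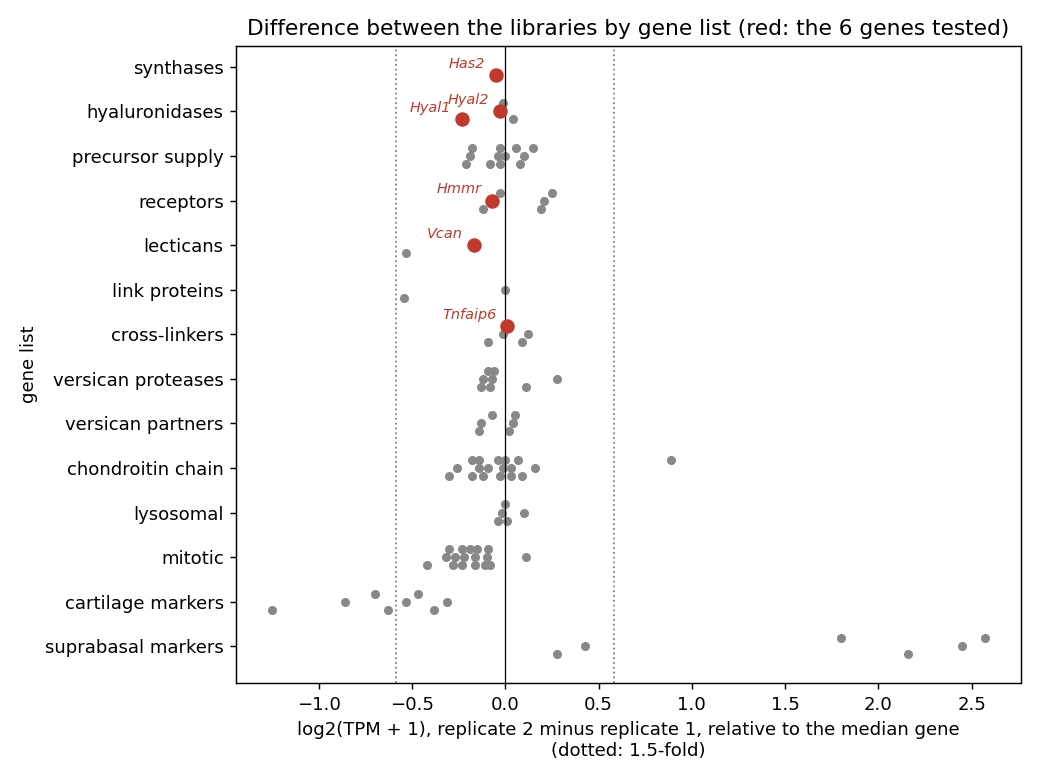
Difference between the libraries in log2(TPM + 1), replicate 2 minus replicate 1, relative to the median gene (horizontal axis), for genes with a mean of 1 TPM or more in each list (vertical axis). Red points are the 6 genes tested, grey points other list genes, and dotted lines mark 1.5-fold. The red points lie between -0.23 and 0.01, while 4 cartilage markers and 4 suprabasal markers lie beyond the dotted lines.

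Outside versican, 1 transcript carried most of the RNA for most of the genes. A transcript of 1893 bases made up 92.7% and 92.1% of Hyal2 TPM, and one of 3892 bases 86.3% and 86.0% of Hmmr TPM. The 7111-base transcript made up 71.3% and 88.1% of Cemip TPM, with a posterior share of 58.9% and 72.3%. Has1, Has2 and Tnfaip6 have 1 annotated transcript each, and the 5912-base transcript took all Has3 expected counts, with a posterior share of 78.5% and 80.3%. Of the 4 genes with a mean of 1 TPM or more and several transcripts, 3 had the same leading transcript in both libraries. The exception was Hyal1, and over all such genes the leading transcript differed for 9.83%.

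The Hyal1 transcript of 3014 bases made up 47.2% of Hyal1 TPM in replicate 1 and 23.4% in replicate 2, and that of 2706 bases 37.3% and 76.5%. The posterior shares were lower, at 34.93% and 17.95% for the longer and 21.96% and 52.26% for the shorter transcript. In replicate 1 the authors' intervals for the transcripts overlapped, at 0.775 to 3.25 TPM and 0.393 to 2.14 TPM. In replicate 2 they met, with 0.00394 to 1.60 TPM for the longer and 1.60 to 3.06 TPM for the shorter transcript.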

How the data were processed

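Each library has a deposited gene table and transcript table with RSEM-style columns, on build mm10 with GENCODE M4 per the companion text. Aligner, quantifier version, strand handling and the credibility level of the intervals: not given in the sources used here. Per the file headers, the first measure is the expected count, an estimated number of reads that the authors did not scale to depth. TPM and FPKM are the authors' values per effective length, spike-ins included, per the file headers. Each transcript has a percent, deposited as its share of the TPM of its gene. The posterior SD of the count is in reads, per the file headers.

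Names, positions and exons are those of GENCODE M21, also for mm10, and 35 of 36 transcripts of the 9 genes had the same length in it. Versican forms were defined by the annotated alpha and beta exons. Expressed meant 1 TPM or more in both libraries. Differences used log2(TPM + 1) for genes with a mean of 1 TPM or more, relative to their median, past 1.5-fold. Intervals on count ratios were exact binomial (95%) on rounded counts. They and the limit of 3 counts set for a count of 0 describe counting error alone. The fold rule was tested on simulated data only for increases of 2-fold or more in genes at 5 TPM or more. Decreases, smaller changes and changes in lower genes were not tested. The 9 genes and the lists (164 genes) were chosen with earlier results of these data known. The text names all 9 genes, the 3 highest of each pathway list, the lowest in lists of 6 or more and list genes past 1.5-fold. Some genes that this rule names are not reported here. Other list genes, and the Adamts codons, were named after values were seen, and marker lists with a gene past 1.5-fold are given by their sums and those genes. Alternatives were other thresholds, pseudocounts, units and scalings and each replicate alone. Tables and intervals were computed in Python 3.11.15 with pandas 2.3.3, numpy 2.4.6 and scipy 1.17.1, figures with matplotlib 3.10.9. For scaling factors only, DESeq2 1.42.0 and edgeR 4.0.16 were run under R 4.3.3 on rounded expected counts.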

Additional observations from a re-analysis of the deposited data

How the results depend on the processing

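At 0.5 TPM 8 of the 9 genes were called expressed, and at 5 TPM 4. Each replicate alone gave 6, as did TPM without spike-ins. The order of levels held for 36 of 36 pairs in FPKM and without spike-ins, and for 35 in either replicate alone. The mean ratio of hyaluronidase to synthase TPM became 35.9 with Hyal3 and Cemip2 and 12.9 in expected counts, and lay between 26.0 and 29.5 in single replicates. The V0 share became 47.9% over the 4 full forms and 69.2% in counts, V1 22.9% over the full forms, V3 7.61% in counts and V2 0.125% by the posterior mean, an alternative added after the data were seen. The Has2 share was 55.1% to 66.6% in single replicates and 63.2% in counts.

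Of the genes tested, none of the 9 passed 1.5-fold with another pseudocount, scaling, fold or filter taken singly, but the filter tested 6 of them, and 4 at a mean of 5 TPM. Has1, outside the filter, lay at a log2 difference of 1.03 with a pseudocount of 0.1. With a pseudocount of 0.1 and no filter, added after the data were seen, 1 did, Has1 at a log2 difference of 1.02, where 3819 genes were called higher and 2585 lower. The 605 higher and 220 lower calls over all genes became 854 and 436 with a pseudocount of 0.1, 434 and 103 with edgeR TMM factors, 419 and 100 with DESeq2 size factors, 213 and 92 at 2-fold, 233 and 59 at a mean of 5 TPM, and 812 and 430 with no filter. Depth limits Has1 most, at 18 and 47 counts. No paired analysis was possible because the series has 1 group.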
